A study of Homo sapiens with 12 samples.

Results

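The 38 genes described here code for proteins of DNA replication and of the G1/S transition of the cell cycle, and were chosen by name as a list of gene symbols with their Ensembl IDs. All 38 IDs were found among the 24916 gene IDs of the series. The series measured total RNA by Affymetrix microarray in SW480 ADH, a human colon carcinoma cell line, on 12 arrays of cells cultured for 72 h. The 4 groups of 3 arrays were cells labelled SPRY2 Y55F, SPRY2 S112A, SPRY2 WT and Mock, and all share the SW480 ADH background and the culture medium with fetal bovine serum. SPRY2 (Sprouty 2) is a feedback regulator of receptor tyrosine kinase signalling, WT is its unmutated form, Y55F replaces a tyrosine by phenylalanine and S112A a serine by alanine, and Mock cells are the controls. The labels do not say how many transfected populations stand behind a construct, and the level of SPRY2 itself and markers of the colon epithelium were not analysed here. The labels state independent experiments with triplicates and do not tie the replicate numbers to experiments, so the p-values rest on array-to-array spread that could be technical in part.

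Before DNA synthesis, the origin recognition complex, CDC6 and CDT1 load the MCM2-7 helicase onto origins in G1 phase, and geminin (GMNN) blocks CDT1 afterwards. Cyclin E with its kinase, and transcription factors of the E2F family, drive cells from G1 into S phase, where CDC45 and the GINS complex join MCM2-7 to form the active helicase. DNA polymerases then copy the strands with the PCNA clamp, which the RFC complex loads, while FEN1 and LIG1 finish the Okazaki fragments and ribonucleotide reductase, TYMS and TK1 supply nucleotides. Many of these genes are textbook E2F targets, and in a mixed culture their RNA is highest in cells at G1/S or in S phase. In bulk RNA, fewer cells in a phase and less RNA per cell cannot be told apart.

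Because E2F factors are known to act on many such genes, the promoter of each member was searched for the E2F motif in the RefSeq table of GRCh38.p14, which gives 300 bases per start, 250 before it and 50 from it on. Members were matched by symbol, and 34 of 38 had a window (not MCM4, MCM5, CCNE2 and RPA2). Of these, 7 had more than 1 window, and a gene was counted where any of its windows held a match. The motif was searched on both strands as TTTCCCGC, TTTCGCGC, TTTGCCGC or TTTGGCGC, where matches on opposite strands can overlap. It was found in 17 of the 34 members (50%) and in 1090 of 27305 genes of the table (3.99%). All 4 matched genes of the MCM2-7 helicase held it (MCM2, MCM3, MCM6 and MCM7), as did 3 of 5 licensing genes (CDC6, CDT1 and GMNN), and 1 of 4 genes of nucleotide supply did (TYMS). The letters CCAAT, searched on both strands in the same windows, were found in 21 of the 34 members (61.8%) and in 39.7% of genes. Of the 17 members with an E2F match 12 passed the test over the 4 groups described below, and of the 17 without one 10 did.

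The 160 bases before the start are shown for CCNE1, RRM2, RFC3 and CDT1, which differed by 1.5-fold or more in a test below, for E2F2, an E2F gene itself, and for MCM6, whose window holds the most matches among the members. Each is written 5′ to 3′ on the strand of its gene, with E2F matches in capitals, from RefSeq, GRCh38.p14.
CCNE1 (chr19:29811831-29811990, plus strand): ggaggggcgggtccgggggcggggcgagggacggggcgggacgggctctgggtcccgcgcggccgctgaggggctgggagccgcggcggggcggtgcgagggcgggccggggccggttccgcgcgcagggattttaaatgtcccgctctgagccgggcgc
RRM2 (chr2:10122408-10122567, plus strand): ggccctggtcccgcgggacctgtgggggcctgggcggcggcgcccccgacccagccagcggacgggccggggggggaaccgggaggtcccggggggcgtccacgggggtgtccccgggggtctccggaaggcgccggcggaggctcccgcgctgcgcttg
RFC3 (chr13:33817989-33818148, plus strand): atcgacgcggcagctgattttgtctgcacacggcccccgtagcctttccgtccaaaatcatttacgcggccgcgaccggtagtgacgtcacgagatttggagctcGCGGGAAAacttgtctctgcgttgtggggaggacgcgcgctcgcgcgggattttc
CDT1 (chr16:88803629-88803788, plus strand): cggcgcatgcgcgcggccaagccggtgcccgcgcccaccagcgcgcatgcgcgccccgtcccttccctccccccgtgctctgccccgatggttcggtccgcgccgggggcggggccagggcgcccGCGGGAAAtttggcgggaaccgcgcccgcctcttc
E2F2 (chr1:23531234-23531393, minus strand): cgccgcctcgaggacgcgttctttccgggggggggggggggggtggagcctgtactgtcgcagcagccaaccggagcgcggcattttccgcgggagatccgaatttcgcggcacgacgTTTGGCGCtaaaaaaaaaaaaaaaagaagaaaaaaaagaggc
MCM6 (chr2:135876444-135876603, minus strand): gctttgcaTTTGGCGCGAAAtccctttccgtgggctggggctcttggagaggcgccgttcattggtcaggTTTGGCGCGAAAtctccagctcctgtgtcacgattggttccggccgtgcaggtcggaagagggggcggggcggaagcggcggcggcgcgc
The stretches of RFC3, CDT1 and E2F2 each hold 1 match, and that of MCM6 holds 4, which overlap in pairs. The letters searched are not in the stretches of CCNE1 and RRM2. RRM2 has another RefSeq window, from a start further downstream, which is not shown and holds no E2F match either. A match in this window is a string of letters and not a measured binding site.

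More members were called between constructs (14 to 20) than between a construct and Mock (6 to 13), and the shares of all IDs called ran in the same direction. A member was called higher or lower where its difference of mean log2 values had a Benjamini-Hochberg adjusted p under 0.05 in limma, adjusted over all 24916 IDs within the comparison. Against Mock, Y55F cells had 10 members higher and 3 lower, where 8.18% and 7.95% of all IDs were called higher and lower. S112A cells had 3 higher and 5 lower against Mock (5.88% and 7.12% of all IDs). WT cells had 2 higher and 4 lower against Mock (5.3% and 4.14% of all IDs). In Y55F against S112A cells 11 members were higher and 3 lower (9.92% and 9.01% of all IDs). In Y55F against WT cells 12 were higher and 3 lower (8.79% and 10.4% of all IDs). In S112A against WT cells 13 were higher and 7 lower (9.19% and 11.9% of all IDs). Over the 4 groups, 24 of 38 members passed the moderated F test, as did 29.3% of all IDs.

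All members but 1 (E2F2) lie above the median of the 24916 mean log2 values, where calls of any kind were more frequent than over all IDs. Among IDs above this median, a split chosen after seeing the data, 27.6% of 12458 IDs were called in either direction in Y55F against Mock, 21.9% in S112A against Mock and 15.3% in WT against Mock. The members' shares were 34.2%, 21.1% and 15.8% in the same 3 comparisons, so the 2 counts for S112A and WT against Mock lie near this background. Between constructs, 36.8% of members were called in Y55F against S112A, 39.5% in Y55F against WT and 52.6% in S112A against WT, against 31.9%, 32.4% and 34.4% of these IDs. In the F test 48.8% of these IDs passed. Whether any share of members exceeds that of these IDs was not tested. The members reach percentile 99 of mean level among all IDs, so the IDs above the median may not match them in level. The differences of members were small, and the largest among the members called against Mock in Y55F cells was 1.37-fold. At 1.5-fold or more, no member was called in Y55F against Mock (3.62% of all IDs), 2 were in S112A against Mock (CCNE1 and RRM2, 2.99%) and 2 in WT against Mock (CCNE1 and RFC3, 2.85%). At that fold 3 members were called in Y55F against S112A (RRM2, CCNE1 and CCNE2, 4.75% of all IDs), 2 in Y55F against WT (CDT1 and CCNE1, 4.63%) and 2 in S112A against WT (CCNE1 and RFC3, 6.56%).

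The median log2 difference over the members was 0.11 in Y55F against Mock, 0.03 in S112A against Mock and -0.06 in WT against Mock, where the medians over all IDs lay between -0.01 and 0.02. It was 0.01 in Y55F against S112A, 0.15 in Y55F against WT and 0.07 in S112A against WT, beside 0.01, -0.01 and -0.03 over all IDs. WT was the group with the lowest mean for 18 of 38 members and the highest for 3, while S112A was highest for 15 and lowest for 11, Y55F highest for 14 and lowest for 4, and Mock highest for 6 and lowest for 5. The values of Y55F and S112A against Mock moved with the scaling, a single array or the summary used. That of Y55F was 0.16 with arrays centred on their medians and 0.08 as a mean over members. That of S112A was 0.06 without S112A 3 or with centring, and -0.02 as a mean over members. That of WT was -0.03 without WT 2, a shift smaller than the array-to-array SD of the members' median deviation. These comparisons share groups and are not independent of each other. The count of 13 in Y55F against Mock depended on single arrays: it was 6 without Mock 1, 6 without Mock 2, 8 without Mock 3 and 7 without Y55F 2.

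**Figure D1:**
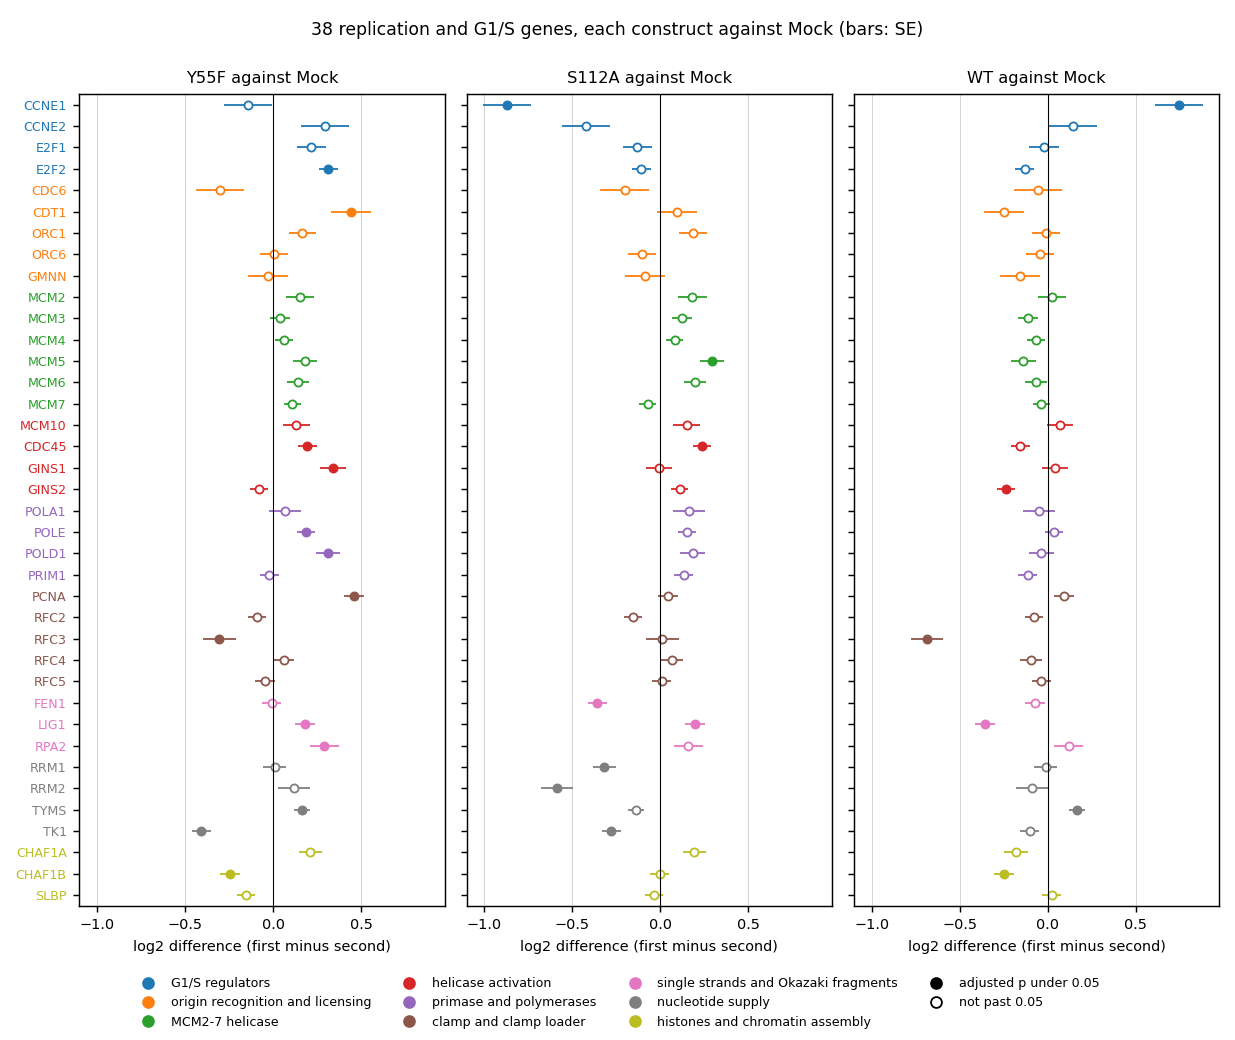
Log2 difference of each of the 38 members from Mock in Y55F, S112A and WT cells (x axis, difference of mean log2 values of 3 arrays, bars: standard error), ordered and coloured by role. Filled points passed an adjusted p of 0.05. CCNE1 lies at -0.87 in S112A and 0.74 in WT cells, and the filled points of Y55F lie mostly to the right of 0.

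The 4 G1/S regulators were CCNE1 and CCNE2, the E-type cyclins that activate CDK2, and E2F1 and E2F2, activating E2F factors. All 4 were higher in Y55F relative to S112A cells, where 9.92% of all IDs were called higher. No other of the 9 role groups had every member called in that comparison, and the call of E2F1 ended in alternatives given below. Against Mock, E2F2 was higher in Y55F cells, CCNE1 was lower in S112A and higher in WT cells, and no other regulator was called in the test as described, although CCNE2 in S112A cells and E2F1 in Y55F cells were under some alternatives given below.

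CCNE1 (ENSG00000105173) had log2 values of 8.12, 8.40 and 8.14 in Y55F cells, 7.59, 7.78 and 7.12 in S112A cells, 9.07, 9.07 and 9.20 in WT cells and 8.31, 8.33 and 8.47 in Mock cells. The WT arrays are the highest, the S112A arrays the lowest, and Y55F and Mock overlap. Its level fell by 0.87 ± 0.14 (SE, n = 3 each) on the log2 scale in S112A against Mock cells (1.83-fold lower, adjusted p = 0.00101) and rose by 0.74 ± 0.14 in WT against Mock cells (1.68-fold, adjusted p = 0.00351). CCNE1 was 3.06-fold lower in S112A relative to WT cells (adjusted p = 3.34e-06), which was the largest difference among the members. It was 1.85-fold lower in Y55F relative to WT cells (adjusted p = 0.000601) and 1.65-fold higher in Y55F relative to S112A cells (adjusted p = 0.00239). Against Mock, Y55F cells differed by -0.14 (95% confidence interval -0.44 to 0.15, adjusted p = 0.627). The S112A arrays were more spread (SD 0.34) than those of Y55F (0.16), WT (0.07) and Mock (0.09), and the test uses 1 spread for the 4 groups. No alternative setting and no left-out array ended any of these 5 calls.

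CCNE2 (ENSG00000175305) had log2 values of 10.63, 10.33 and 10.07 in Y55F cells, 9.82, 9.63 and 9.44 in S112A cells, 10.17, 10.08 and 10.34 in WT cells and 10.10, 9.89 and 10.16 in Mock cells. The S112A arrays lie below all others, and the other 3 groups overlap. CCNE2 was 1.64-fold higher in Y55F relative to S112A cells (adjusted p = 0.00259) and 1.48-fold lower in S112A relative to WT cells (adjusted p = 0.00968). Against Mock its difference was 0.29 in Y55F (adjusted p = 0.209), -0.42 in S112A (adjusted p = 0.0673) and 0.14 in WT cells (adjusted p = 0.751). The difference of S112A from Mock was called in 7 of the 19 alternatives, among them the replicate block (adjusted p = 0.0471), array weights (0.000298) and quantile normalization (0.0384). The check of replicate numbers described below did not pair arrays in that comparison. CCNE1 and CCNE2 thus were called in the same direction in Y55F against S112A and in S112A against WT, while in WT against Mock only CCNE1 was called. A test of the difference between both cyclins was not made.

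E2F2 (ENSG00000007968) had log2 values of 7.54, 7.54 and 7.60 in Y55F cells, 7.08, 7.13 and 7.19 in S112A cells, 7.17, 7.09 and 7.06 in WT cells and 7.29, 7.17 and 7.26 in Mock cells. All Y55F arrays exceed all 9 others. E2F2 rose by 0.31 ± 0.05 (SE, n = 3 each) in Y55F against Mock cells (1.24-fold, adjusted p = 0.00134), and was 1.34-fold higher in Y55F relative to S112A cells (adjusted p = 0.000117) and 1.36-fold higher than in WT cells (adjusted p = 8.24e-05). In S112A and WT cells it differed from Mock by -0.11 and -0.13, neither past the threshold. E2F1 was 1.27-fold higher in Y55F relative to S112A cells (adjusted p = 0.0104). This call ended without S112A 2 (adjusted p = 0.0521) and in the fit to the 2 groups compared (0.0593). Its difference of Y55F from Mock, 0.22, had an adjusted p of 0.11, and of 0.033 with the replicate number as a block. In Y55F against WT cells the difference of 0.24 had an adjusted p of 0.0673, and of 0.0184 with the block, 0.0308 with array weights and 0.0279 with arrays centred on their medians. The check of replicate numbers described below did not pair arrays in Y55F against Mock or in Y55F against WT.

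**Figure D2:**
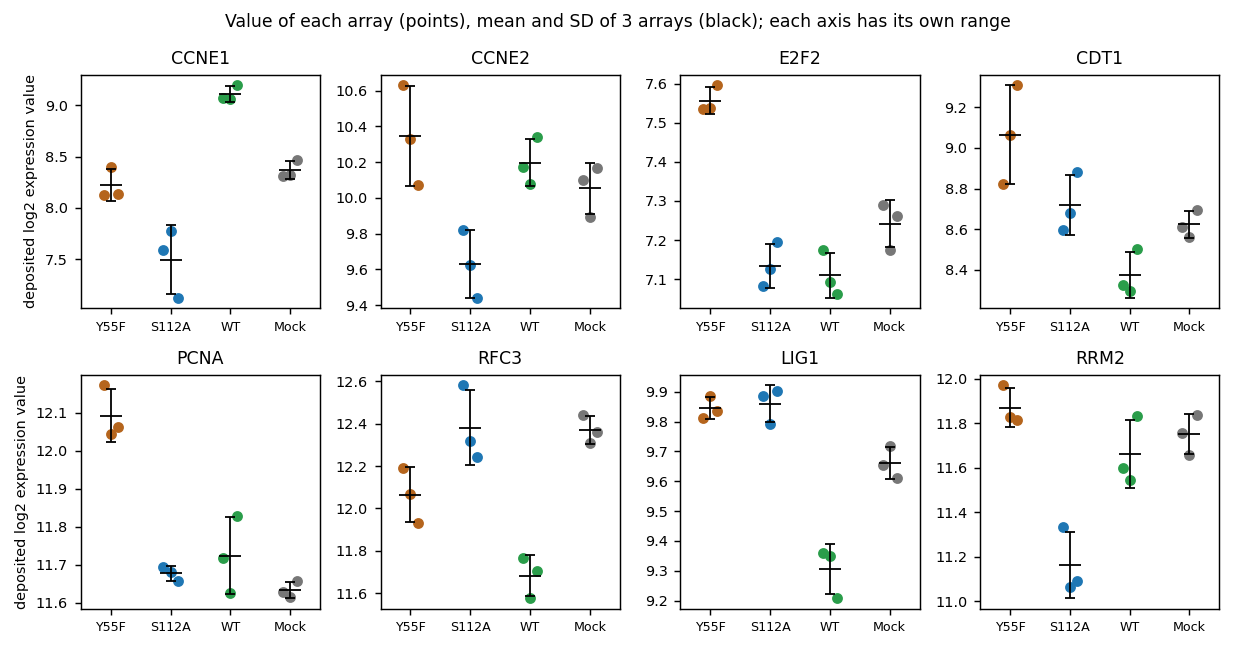
Log2 values of 8 members on every array (points), by group in the order Y55F, S112A, WT and Mock, with the group mean as a line. CCNE1 is highest in the WT arrays and lowest in the S112A arrays, E2F2 and PCNA are highest in the Y55F arrays, and RRM2 is lowest in the S112A arrays.

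Of the 5 genes of origin recognition and licensing, CDT1 was the only one called in any comparison. CDC6, which loads the helicase, ORC1 and ORC6, subunits of the origin recognition complex, and the inhibitor GMNN were called in none, with differences between -0.30 and 0.20. CDT1 (ENSG00000167513) had log2 values of 8.82, 9.06 and 9.31 in Y55F cells, 8.60, 8.68 and 8.88 in S112A cells, 8.33, 8.30 and 8.50 in WT cells and 8.61, 8.56 and 8.70 in Mock cells. The WT arrays are the lowest, and the Y55F arrays lie above those of WT and Mock and overlap those of S112A. CDT1, the loading factor that is destroyed in S phase, was 1.61-fold higher in Y55F relative to WT cells (difference 0.69 ± 0.11, SE, adjusted p = 0.000898) and 1.36-fold higher than in Mock cells (adjusted p = 0.0179). In Y55F against S112A cells the difference of 0.35 had an adjusted p of 0.0519, and of 0.00531 with the replicate number as a block. In S112A against WT cells CDT1 was 1.27-fold higher (adjusted p = 0.0484). The call against Mock ended when any of Mock 1, Mock 2, Y55F 2 or Y55F 3 was left out (adjusted p up to 0.0685), and that of S112A against WT for any of 8 arrays (up to 0.164). GMNN ranged from 10.38 to 10.88 over all 12 arrays and ORC6 from 8.92 to 9.29, with F-test adjusted p of 0.759 and 0.714.

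Genes of the MCM2-7 helicase, the ring that unwinds DNA, were called most often in S112A against WT cells, then in Y55F against WT cells. Of all IDs, 9.19% and 8.79% were called higher in these comparisons. None of the 6 genes was called in WT against Mock in the test as described. In S112A against WT cells 4 of 6 were higher (MCM3, MCM4, MCM5 and MCM6), by 1.11- to 1.35-fold, with a median difference of 0.20 over the 6. In Y55F against WT cells MCM5 and MCM6 were higher, and all 6 differences were above 0 (0.13 to 0.32, median 0.15). MCM3, MCM4 and MCM7 were also called there with arrays centred on their medians (adjusted p = 0.0468, 0.0457 and 0.0191) or normalized again by quantiles (0.0203, 0.0243 and 0.0258). In Y55F against S112A cells MCM7 was called higher, and against Mock the only call in the test as described was MCM5 in S112A cells. MCM6 in S112A against Mock (adjusted p = 0.0618) was called higher under some alternatives, among them array weights (0.0204) and the replicate block (0.0258). With array weights MCM7 was called lower in that comparison (0.0243). MCM5 (ENSG00000100297) had log2 values of 10.41, 10.50 and 10.44 in Y55F cells, 10.52, 10.53 and 10.64 in S112A cells, 10.10, 10.02 and 10.28 in WT cells and 10.25, 10.22 and 10.33 in Mock cells. Both mutant groups lie above the WT and Mock arrays, and WT and Mock overlap. MCM5 was 1.35-fold higher in S112A relative to WT cells (adjusted p = 0.000539), 1.25-fold higher in Y55F relative to WT cells (adjusted p = 0.00568) and 1.23-fold higher in S112A relative to Mock cells (adjusted p = 0.0124). The last call ended without Mock 2 (adjusted p = 0.0508). In Y55F against Mock cells the difference of MCM5, 0.18, had an adjusted p of 0.108. It was called with array weights (0.024), with arrays centred on their medians (0.0482) and without WT 3 (0.0483).

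MCM6 was 1.2-fold higher in S112A relative to WT cells (adjusted p = 0.009), and MCM3 1.18-fold (adjusted p = 0.00993). MCM4 was 1.11-fold higher there (adjusted p = 0.0493), a call that ended for any of 10 left-out arrays (adjusted p up to 0.179). MCM6 was 1.16-fold higher in Y55F relative to WT cells (adjusted p = 0.0353), and this call ended without WT 1, WT 2, Y55F 1 or Y55F 3 (up to 0.144). MCM7 did not follow the others in S112A: it differed from WT by -0.04 (95% confidence interval -0.14 to 0.07), and was 1.13-fold higher in Y55F relative to S112A cells (adjusted p = 0.0195, up to 0.0696 without S112A 2, Y55F 1 or Y55F 3). MCM2 was called in no comparison, with differences from -0.03 to 0.18.

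Helicase activation is represented by CDC45, by GINS1 and GINS2 of the GINS complex and by MCM10. CDC45 (ENSG00000093009) had log2 values of 10.52, 10.56 and 10.49 in Y55F cells, 10.59, 10.55 and 10.55 in S112A cells, 10.10, 10.14 and 10.28 in WT cells and 10.33, 10.33 and 10.33 in Mock cells. Both mutant groups lie above Mock, and Mock lies above WT. CDC45 was 1.31-fold higher in S112A relative to WT cells (adjusted p = 0.000142), 1.28-fold higher in Y55F relative to WT cells (adjusted p = 0.000469) and 1.18-fold higher in S112A relative to Mock cells (adjusted p = 0.00929). It was also 1.14-fold higher in Y55F relative to Mock cells (adjusted p = 0.023), but any of Mock 1, Mock 2, Mock 3, Y55F 1 or Y55F 2 left out ended that call (up to 0.0805). WT cells differed from Mock by -0.16 (adjusted p = 0.0989). This difference was called with array weights (0.00754), with quantile normalization (0.0207) and without WT 3 (0.0191). MCM10 was called in no comparison.

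The GINS subunits, partners in 1 complex, were called in opposite directions in Y55F against S112A cells. GINS1 (ENSG00000101003) had log2 values of 11.39, 11.39 and 11.27 in Y55F cells, 11.11, 11.05 and 10.85 in S112A cells, 11.02, 11.02 and 11.12 in WT cells and 11.09, 10.94 and 11.01 in Mock cells. The Y55F arrays lie above all others. GINS1 was 1.27-fold higher in Y55F relative to Mock cells (adjusted p = 0.00612), 1.27-fold higher than in S112A cells (adjusted p = 0.00445) and 1.23-fold higher than in WT cells (adjusted p = 0.0111). GINS2 (ENSG00000131153) had log2 values of 12.40, 12.46 and 12.40 in Y55F cells, 12.64, 12.57 and 12.63 in S112A cells, 12.26, 12.20 and 12.33 in WT cells and 12.46, 12.50 and 12.54 in Mock cells. Here the S112A arrays are the highest and the WT arrays the lowest. GINS2 was 1.18-fold lower in WT relative to Mock cells (adjusted p = 0.00783) and 1.27-fold higher in S112A relative to WT cells (adjusted p = 0.000238). It was 1.14-fold lower in Y55F relative to S112A cells (adjusted p = 0.0171, up to 0.0622 without S112A 1, Y55F 1 or Y55F 3), where GINS1 was higher. It was 1.12-fold higher in Y55F relative to WT cells (adjusted p = 0.0435), a call that any of 11 left-out arrays ended (up to 0.162).

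Of the primase and polymerase genes, POLE and POLD1, the catalytic subunits of the leading- and lagging-strand polymerases, were higher in Y55F relative to Mock cells. POLD1 (ENSG00000062822) had log2 values of 9.57, 9.73 and 9.77 in Y55F cells, 9.48, 9.53 and 9.68 in S112A cells, 9.32, 9.27 and 9.43 in WT cells and 9.33, 9.42 and 9.38 in Mock cells. All arrays of both mutant groups exceed those of WT and Mock. POLD1 was 1.24-fold higher in Y55F relative to Mock cells (adjusted p = 0.0088) and 1.27-fold higher than in WT cells (adjusted p = 0.00377). Its 1.16-fold higher level in S112A relative to WT cells (adjusted p = 0.0436) was lost for any of 8 left-out arrays (up to 0.157). POLE was 1.14-fold higher in Y55F relative to Mock cells (adjusted p = 0.0278), which was lost without Mock 1, Mock 2, Mock 3 or Y55F 3 (up to 0.117). PRIM1, the catalytic primase subunit, was 1.19-fold higher in S112A relative to WT cells (adjusted p = 0.005). Its difference of -0.15 in Y55F against S112A cells had an adjusted p of 0.0697, and of 0.0396 with the replicate number as a block. POLA1, of the polymerase that extends primers, was called in no comparison.

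The sliding clamp and its loader did not change together. PCNA (ENSG00000132646) had log2 values of 12.17, 12.04 and 12.06 in Y55F cells, 11.69, 11.68 and 11.66 in S112A cells, 11.72, 11.62 and 11.83 in WT cells and 11.63, 11.61 and 11.66 in Mock cells. The Y55F arrays lie above all 9 others, while S112A and WT overlap. PCNA rose by 0.46 ± 0.06 (SE, n = 3 each) in Y55F against Mock cells (1.37-fold, adjusted p = 0.000166), and it was 1.33-fold higher in Y55F relative to S112A cells (adjusted p = 0.00026) and 1.29-fold higher than in WT cells (adjusted p = 0.000668). S112A and WT cells differed from Mock by 0.04 and 0.09, neither past the threshold.

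RFC3 (ENSG00000133119) had log2 values of 12.19, 12.07 and 11.93 in Y55F cells, 12.58, 12.32 and 12.24 in S112A cells, 11.77, 11.58 and 11.71 in WT cells and 12.44, 12.31 and 12.36 in Mock cells. The WT arrays lie below all 9 others and the Y55F arrays below those of S112A and Mock, which overlap. RFC3, a small subunit of the clamp loader, fell by 0.69 ± 0.09 (SE, n = 3 each) in WT against Mock cells (1.61-fold lower, adjusted p = 0.000371), and was 1.62-fold higher in S112A relative to WT cells (adjusted p = 0.000139). In S112A against Mock cells it differed by 0.01 (95% confidence interval -0.19 to 0.21). In Y55F cells it lay between the other constructs, 1.3-fold higher than in WT (adjusted p = 0.0117, 0.0545 without WT 2), 1.24-fold lower than in S112A (adjusted p = 0.0316) and 1.24-fold lower than in Mock cells (adjusted p = 0.0425). The last 2 calls ended for any of 4 and 8 left-out arrays, with adjusted p up to 0.128 and 0.169. Both also ended with arrays centred on their medians (0.0706 and 0.125). The other loader subunits measured, RFC2, RFC4 and RFC5, were called in none of the 6 comparisons, and their differences lay between -0.16 and 0.16. Centred on array medians or normalized again by quantiles, RFC4 was called higher in S112A relative to WT cells (adjusted p = 0.0444 and 0.0335), and centred also in Y55F against WT cells (0.0381). RFC5 had the highest F-test adjusted p of the members, 0.867.

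LIG1, which seals Okazaki fragments, differed in 5 of the 6 comparisons. LIG1 (ENSG00000105486) had log2 values of 9.81, 9.89 and 9.83 in Y55F cells, 9.89, 9.79 and 9.90 in S112A cells, 9.36, 9.35 and 9.21 in WT cells and 9.65, 9.72 and 9.61 in Mock cells. The arrays fall into 3 levels, with both mutant groups above Mock and WT below it. LIG1 was 1.28-fold lower in WT relative to Mock cells (adjusted p = 0.00131), 1.47-fold higher in S112A relative to WT cells (adjusted p = 1.66e-05) and 1.45-fold higher in Y55F relative to WT cells (adjusted p = 3.38e-05). Against Mock it was 1.15-fold higher in S112A cells (adjusted p = 0.0379) and 1.14-fold higher in Y55F cells (adjusted p = 0.0475). The S112A call ended when any of 5 arrays was left out (up to 0.135), and the Y55F call when any of 11 was (up to 0.157) or with the replicate number as a block (0.0531). Both calls also ended when arrays were normalized again by quantiles (0.117 and 0.164).

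FEN1 (ENSG00000168496) had log2 values of 10.52, 10.65 and 10.54 in Y55F cells, 10.25, 10.20 and 10.21 in S112A cells, 10.54, 10.45 and 10.53 in WT cells and 10.59, 10.65 and 10.50 in Mock cells. FEN1, the nuclease that trims the flaps of these fragments, was lowest in all S112A arrays, while Y55F, WT and Mock overlap. It was 1.28-fold lower in S112A relative to Mock cells (adjusted p = 0.000818), 1.22-fold lower in S112A relative to WT cells (adjusted p = 0.00215) and 1.27-fold higher in Y55F relative to S112A cells (adjusted p = 0.000629). FEN1 and LIG1 act in sequence on the same fragments, and in S112A against WT cells FEN1 was lower and LIG1 higher. RPA2, a subunit of the complex that coats single strands, was 1.22-fold higher in Y55F relative to Mock cells (adjusted p = 0.0331), a call that ended without Mock 1, Mock 2, Y55F 1 or Y55F 2 (up to 0.113).

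The genes of nucleotide supply were lower in S112A relative to WT cells. RRM1, RRM2, TYMS and TK1 all were, by 1.13- to 1.41-fold, where 11.9% of all IDs were called lower. The call of TK1 depended on the scaling, as given below. RRM1, RRM2 and TK1 were also lower in S112A than in Mock cells, while RRM1, RRM2 and TYMS were higher in Y55F relative to S112A cells. The 7 members lower in S112A relative to WT cells were these 4 genes of nucleotide supply, both E-type cyclins and FEN1. The 13 higher ones were genes of the helicase and its activation, CDT1, POLD1, PRIM1, RFC3, LIG1, CHAF1A and CHAF1B.

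RRM2 (ENSG00000171848) had log2 values of 11.97, 11.83 and 11.81 in Y55F cells, 11.33, 11.06 and 11.09 in S112A cells, 11.60, 11.55 and 11.83 in WT cells and 11.76, 11.66 and 11.84 in Mock cells. The S112A arrays lie below all 9 others. RRM2, the subunit of ribonucleotide reductase that is limiting in the cell cycle, fell by 0.59 ± 0.09 (SE, n = 3 each) in S112A against Mock cells (1.5-fold lower, adjusted p = 0.000988), was 1.41-fold lower than in WT cells (adjusted p = 0.00173), and was 1.63-fold higher in Y55F relative to S112A cells (adjusted p = 0.000161). RRM1 (ENSG00000167325) had log2 values of 11.98, 11.85 and 11.76 in Y55F cells, 11.62, 11.52 and 11.47 in S112A cells, 11.83, 11.81 and 11.90 in WT cells and 11.84, 11.82 and 11.92 in Mock cells. Again the S112A arrays are below all others and the remaining groups overlap. RRM1, the large subunit of the same enzyme, was 1.25-fold lower in S112A relative to Mock cells (adjusted p = 0.00517), 1.24-fold lower than in WT cells (adjusted p = 0.00396) and 1.26-fold higher in Y55F relative to S112A cells (adjusted p = 0.00311). In Y55F and WT cells neither subunit was called against Mock.

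TK1 (ENSG00000167900) had log2 values of 11.26, 11.34 and 11.26 in Y55F cells, 11.34, 11.46 and 11.44 in S112A cells, 11.53, 11.59 and 11.65 in WT cells and 11.64, 11.73 and 11.70 in Mock cells. The values of Y55F and S112A lie below those of WT and Mock. TK1, the salvage kinase for thymidine, was 1.33-fold lower in Y55F relative to Mock cells (adjusted p = 0.000253), 1.21-fold lower in S112A relative to Mock cells (adjusted p = 0.00392) and 1.23-fold lower in Y55F relative to WT cells (adjusted p = 0.00164). It was 1.13-fold lower in S112A relative to WT cells (adjusted p = 0.0358, up to 0.135 without WT 2, WT 3, S112A 1 or S112A 3). That call also ended with arrays centred on their medians (0.0646), normalized again by quantiles (0.0616) or fitted for the 2 groups compared (0.0884). TYMS, which makes thymidylate, was 1.24-fold lower in S112A relative to WT cells (adjusted p = 0.000284) and 1.23-fold higher in Y55F relative to S112A cells (adjusted p = 0.000395). It was 1.12-fold higher in Y55F relative to Mock cells (adjusted p = 0.0255, up to 0.0821 for any of 5 left-out arrays) and 1.12-fold higher in WT relative to Mock cells (adjusted p = 0.035, up to 0.118 for any of 7). The call of TYMS in WT against Mock also ended with arrays centred on their medians (0.0875). In Y55F against Mock cells TK1 was thus lower and TYMS higher.

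CHAF1A and CHAF1B form the chromatin assembly factor that places histones behind the fork, and SLBP binds histone mRNA. CHAF1A (ENSG00000167670) had log2 values of 10.31, 10.30 and 10.32 in Y55F cells, 10.42, 10.13 and 10.32 in S112A cells, 9.92, 9.98 and 9.85 in WT cells and 10.12, 10.10 and 10.07 in Mock cells. The WT arrays are the lowest, and both mutant groups lie above Mock and overlap. CHAF1A was 1.31-fold higher in Y55F relative to WT cells (adjusted p = 0.00121) and 1.3-fold higher in S112A relative to WT cells (adjusted p = 0.00134). Its differences from Mock, 0.21 in Y55F and 0.19 in S112A cells, had adjusted p of 0.0515 and 0.0901. That in Y55F cells was called in some alternatives, among them the fit to the 2 groups compared (0.0263) and centring (0.0335). That in S112A cells was called without S112A 2 (0.0114). CHAF1B (ENSG00000159259) had log2 values of 11.09, 11.07 and 11.02 in Y55F cells, 11.40, 11.28 and 11.22 in S112A cells, 11.10, 11.02 and 11.05 in WT cells and 11.36, 11.26 and 11.29 in Mock cells. For this partner Y55F and WT overlap below S112A and Mock. CHAF1B was 1.19-fold lower in Y55F relative to Mock cells (adjusted p = 0.0088, 0.0646 with arrays centred on their medians) and 1.19-fold lower in WT relative to Mock cells (adjusted p = 0.0123, up to 0.0668 without Mock 1 or WT 2). It was 1.18-fold lower in Y55F relative to S112A cells (adjusted p = 0.00831) and 1.18-fold higher in S112A relative to WT cells (adjusted p = 0.00688). Y55F and WT cells differed by 0.00 (95% confidence interval -0.12 to 0.12). SLBP was 1.13-fold lower in Y55F relative to WT cells (adjusted p = 0.0338), a call that any of 7 left-out arrays ended (up to 0.124). It also ended with arrays centred on their medians (difference -0.13, adjusted p = 0.177) and in the fit to the 2 groups compared (0.0966).

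**Figure D3:**
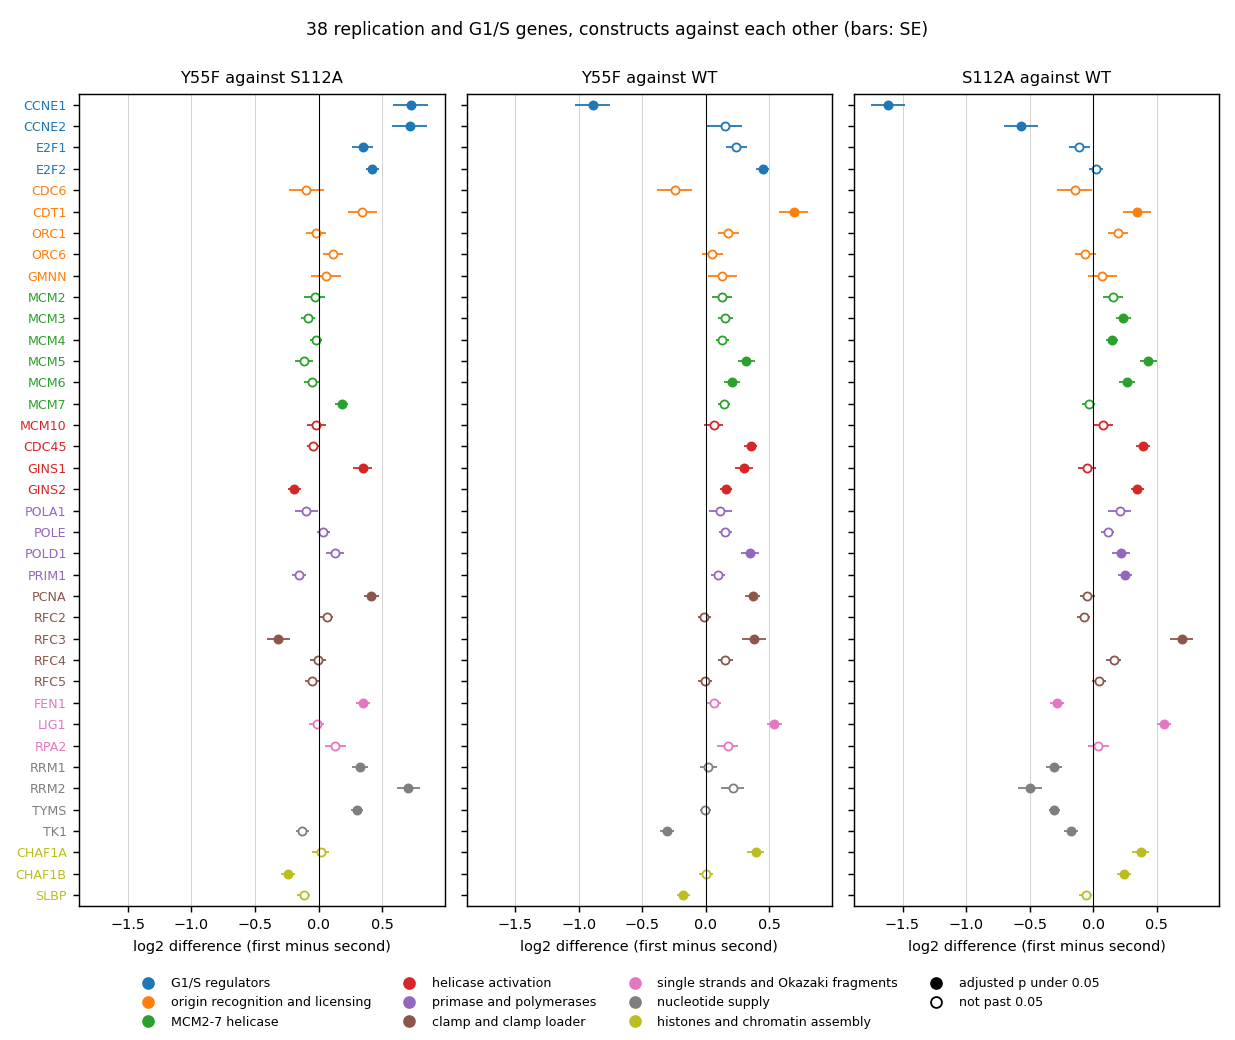
Log2 difference of each of the 38 members between constructs (x axis, first minus second, difference of means of 3 arrays, bars: standard error), for Y55F against S112A, Y55F against WT and S112A against WT. Filled points passed an adjusted p of 0.05. In S112A against WT, nucleotide supply and the E-type cyclins lie left of 0, with CCNE1 at -1.61, and RFC3, LIG1 and MCM5 lie right of it.

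Counted over the 6 comparisons, 10 members were called in none (MCM2, MCM10, CDC6, ORC1, ORC6, GMNN, POLA1, RFC2, RFC4 and RFC5), and CCNE1, RFC3 and LIG1 were each called in 5. Against Mock, 19 members were called in no construct. The 7 called higher in Y55F cells and in no other construct against Mock were PCNA, CDT1, GINS1, E2F2, POLE, POLD1 and RPA2. Of all IDs, 8.18% were called higher in Y55F against Mock, with or without a call in another construct. The shares of all IDs with these patterns of calls were not counted, so no pattern is read as particular to the members. For PCNA, GINS1 and E2F2 the direct tests of Y55F against S112A and against WT were also past the threshold. For POLD1 and CDT1 that against WT was, and for CDT1 that against S112A was too with the replicate number as a block (adjusted p = 0.00531). The check described below paired numbers in Y55F against S112A, but the block is fitted jointly to all 4 groups. For RPA2 and POLE neither direct test was past the threshold. POLE passed against WT with the block (0.0481), a comparison in which the check did not pair numbers. RRM1, RRM2 and FEN1 were lower against Mock in S112A cells alone, and for all 3 the direct tests of S112A against WT and of Y55F against S112A were past the threshold too.

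In the Y55F arrays 31, 29 and 22 of 38 members lay above their own mean over the 12 arrays, against 23, 21 and 19 in the S112A arrays, 6, 6 and 19 in the WT arrays and 19, 12 and 22 in the Mock arrays. WT 3 thus stood apart from WT 1 and WT 2. The median deviation of all IDs from their own means was 0.0429 on WT 3, the highest of the 12 arrays. It was -0.0141 on WT 1 and 0.0067 on WT 2. Over the members the median deviation was -0.0017 on WT 3, -0.0788 on WT 1 and -0.1084 on WT 2. The share of all IDs above their own mean was not counted. Without WT 3, 18 members were called in Y55F against WT (16 higher and 2 lower), 19 in S112A against WT (13 higher and 6 lower) and 6 in WT against Mock (1 higher and 5 lower), so the counts were as large or nearly so. Leaving out any 1 of the 12 arrays gave 16 to 19 member calls in S112A against WT, 11 to 18 in Y55F against WT and 4 to 6 in WT against Mock. What set WT 3 apart was not tested.

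**Figure D4:**
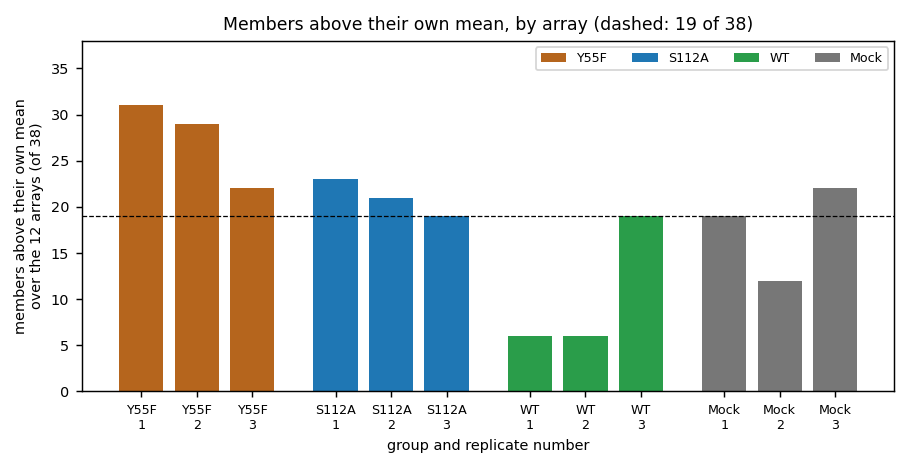
Number of the 38 members whose log2 value on an array exceeds the member's own mean over the 12 arrays (bars, 1 per array, from 0), for Y55F, S112A, WT and Mock. The dashed line marks 19 of 38. The Y55F arrays stand at 31, 29 and 22, and WT 1 and WT 2 at 6.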

How the data were processed

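The authors deposited 1 table of log2 values with Ensembl gene IDs as lines and arrays as columns. Per the submitters' processing notes RMA and affy were used, without a version. RMA usually corrects background, normalizes quantiles and summarises probes, so values are relative within an array. The range of the deposited values, 3.91 to 14.12 with array medians of 7.20 to 7.32, is that of a log2 scale. No raw intensities were analysed, so the number of arrays limits the precision. Arrays correlated at 0.995 to 0.998 within groups and 0.985 to 0.994 between groups, and no 2 were identical.

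The test was limma 3.58.1 (R 4.3.3, lmFit and eBayes) on all 24916 IDs and 12 arrays, with 1 mean per group, 8 residual degrees of freedom and no filter, and tested on simulated data first. p-values were adjusted by Benjamini-Hochberg within each of 6 comparisons (threshold 0.05), as in the F test. Folds are 2 to the power of a log2 difference. Every array's values are given for the 5 largest called differences per comparison and the member with the largest F per role, and the 3 members with the smallest F are named; other members are given by range and count. The members and lists were chosen with earlier results of these data known. Symbols of members came with the list. No table used here pairs other Ensembl IDs with symbols, so planned lists of other replication genes, of G2 and mitosis genes and of cell type markers, and SPRY2, were not analysed here.

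Same-numbered arrays were checked for shared deviations from their group means. The correlation was over 0.1 for every number in WT against Mock (0.14, 0.46 and 0.36) and in Y55F against S112A (0.61, 0.12 and 0.40), but not in the other 4 comparisons, so numbers were taken to pair arrays in those 2. The replicate block was fitted jointly to all 4 groups, so it applied to the other 4 comparisons too. Alternatives were the removal of the lowest IDs by mean, a fit to the groups compared, the replicate block, array weights, centring, quantile normalization, a trend in the variance, leaving out each array and a 1.5-fold minimum.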

Additional observations from a re-analysis of the deposited data

How the results depend on the processing

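Of the 76 member calls, 52 were kept in all 19 alternatives other than the 1.5-fold minimum and 24 were lost in at least 1, while no called difference changed sign and 44 further calls were gained in at least 1. With array weights, WT against Mock had 12 calls and S112A against Mock 24, in a fit that gave Mock 1 a weight of 5.31 and S112A 2 a weight of 6.06. MCM10, POLA1, RFC2, RFC4, ORC6 and GMNN were among the 24. The fit to the 2 groups compared ended calls as well. Among them were MCM4 in S112A against WT (adjusted p = 0.113) and GINS2 and MCM6 in Y55F against WT (0.112 and 0.0858). At 1.5-fold or more the calls were 0 in Y55F against Mock, 2 in S112A against Mock, 2 in WT against Mock, 3 in Y55F against S112A, 2 in Y55F against WT and 2 in S112A against WT. Leaving out 1 array gave 6 to 14 calls in Y55F against Mock, and medians of 0.0191 to 0.0628 in S112A against Mock and -0.0030 to 0.0544 in Y55F against S112A (0.0544 without S112A 1); that of WT against Mock was -0.0277 without WT 2. With arrays centred on their medians the member median was 0.159 in Y55F against Mock, 0.0582 in S112A against Mock and 0.202 in Y55F against WT. Centring also moved the medians over all IDs, to 0.0459, 0.0208 and 0.0383 in these comparisons, from 0.0005, -0.01 and -0.0131. As a mean over members in place of the median, the difference was 0.0795 in Y55F against Mock, -0.0244 in S112A against Mock, 0.104 in Y55F against S112A and 0.0332 in S112A against WT, so the sign in S112A against Mock depends on this choice. With the replicate number as a block there were 13 calls in Y55F against Mock, 10 in S112A against Mock, 6 in WT against Mock, 16 in Y55F against S112A, 18 in Y55F against WT, 19 in S112A against WT and 24 in the F test. The block ended the calls of LIG1 in Y55F against Mock (adjusted p = 0.0531) and of MCM4 in S112A against WT (adjusted p = 0.0558), and gained 8: E2F1 in Y55F against Mock (0.033), CCNE2 and MCM6 in S112A against Mock (0.0471 and 0.0258), CDT1 and PRIM1 in Y55F against S112A (0.00531 and 0.0396), and E2F1, MCM3 and POLE in Y55F against WT (0.0184, 0.044 and 0.0481). Of the comparisons with a call gained or lost by the block, only Y55F against S112A passed the check of the numbers. The causes of these shifts were not tested. With 3 arrays per group, differences from -0.42 to 0.35 on the log2 scale remained without a call.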
